A study of Rattus norvegicus with 11 samples.

Results

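Contraction of striated muscle is switched on by calcium through troponin, a complex of a calcium-binding subunit (troponin C), an inhibitory subunit (troponin I) and a tropomyosin-binding subunit (troponin T). Each myosin head also carries a pair of small proteins, a regulatory and an essential light chain. Rodents make slow and fast forms of all of these from separate genes, and slow and fast fibres differ in which forms they use. The slow genes are Tnni1, Tnnt1, Tnnc1, Myl2 and Myl3, and their fast counterparts are Tnni2, Tnnt3, Tnnc2, Mylpf and Myl1. These 10 genes were taken by symbol from a table of 16810 genes. All 10 had a row and all passed the filter on low counts, among 10814 genes tested.

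Messenger RNA was measured in soleus, a hind limb muscle rich in slow fibres that holds posture, from 11 male Sprague Dawley rats aged 12 months. The mothers of 5 animals (the high-fat group) ate chow high in lard-based fat and in sucrose, with 23.3% fat by one label and 23.5% by another, and 20% sucrose. The mothers of 6 animals (the control group) ate standard chow, with 6 or 7% fat by the same labels and 10% sucrose. Feeding of the mothers began 3 weeks ahead of mating and lasted until the end of lactation, and all offspring were weaned at day 21 onto standard chow, so the adult diet was the same in both groups. No litter gave more than 1 animal, and each animal is 1 library.

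Libraries held 10156225 to 15362013 counts. Values are CPM, counts scaled to a common library size, after TMM, an adjustment of library sizes for composition. The 10 genes together took 5.04 to 9.21% of all counts in a library, and the lowest single count among them was 651, so counting error was small beside the differences between animals. Levels are not corrected for transcript length and are therefore compared between animals, not between genes. The labelled tissue was checked against its defining myosin: the slow myosin heavy chain gene Myh7 stood at 17367 to 25146 CPM in the high-fat group and at 18432 to 23574 CPM in the control group. In whole muscle, fewer fibres of a type and less RNA per fibre cannot be told apart.

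Promoters of the fast genes other than Tnnt3 are shown because the fast genes varied together between animals, and that of slow Tnnt1 for contrast. RefSeq entries on build GRCr8 were found for 7 of the 10 genes, Mylpf under its current symbol Myl11, and cover 250 bases before to 50 after the transcript start. None was found for Tnnt3, Tnnc1 or Myl2. Capitals mark E-boxes (CANNTG, the site of myogenic basic helix-loop-helix factors), matches to the MEF2 consensus and MCAT elements (CATTCC), searched on both strands.
Tnni2, chr1:207024240-207024539, plus strand: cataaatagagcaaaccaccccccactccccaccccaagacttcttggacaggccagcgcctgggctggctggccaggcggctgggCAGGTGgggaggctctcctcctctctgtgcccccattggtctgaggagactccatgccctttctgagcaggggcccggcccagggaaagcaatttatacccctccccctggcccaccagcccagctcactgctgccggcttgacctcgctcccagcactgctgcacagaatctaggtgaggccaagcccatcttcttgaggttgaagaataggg
Tnnc2, chr3:173935290-173935589, minus strand: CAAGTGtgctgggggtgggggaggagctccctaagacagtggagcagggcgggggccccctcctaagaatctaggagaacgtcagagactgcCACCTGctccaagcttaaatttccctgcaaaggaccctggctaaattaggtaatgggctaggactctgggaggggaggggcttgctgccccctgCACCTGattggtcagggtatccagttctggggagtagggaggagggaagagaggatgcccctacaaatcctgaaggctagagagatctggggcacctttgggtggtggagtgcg
Mylpf, chr1:191260039-191260338, plus strand: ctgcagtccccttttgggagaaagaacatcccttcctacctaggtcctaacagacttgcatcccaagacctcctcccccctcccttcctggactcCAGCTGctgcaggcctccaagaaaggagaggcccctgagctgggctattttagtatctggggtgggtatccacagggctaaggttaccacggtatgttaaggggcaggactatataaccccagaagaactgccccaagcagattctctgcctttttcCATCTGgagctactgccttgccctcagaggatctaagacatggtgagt
Myl1, first start, chr9:75907647-75907946, minus strand: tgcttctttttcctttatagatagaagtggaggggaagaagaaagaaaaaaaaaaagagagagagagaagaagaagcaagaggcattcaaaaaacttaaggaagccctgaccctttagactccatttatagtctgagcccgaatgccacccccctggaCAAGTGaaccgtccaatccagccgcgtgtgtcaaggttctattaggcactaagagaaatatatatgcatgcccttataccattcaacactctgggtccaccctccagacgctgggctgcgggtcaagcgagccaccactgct
Myl1, second start, chr9:75897750-75898049, minus strand: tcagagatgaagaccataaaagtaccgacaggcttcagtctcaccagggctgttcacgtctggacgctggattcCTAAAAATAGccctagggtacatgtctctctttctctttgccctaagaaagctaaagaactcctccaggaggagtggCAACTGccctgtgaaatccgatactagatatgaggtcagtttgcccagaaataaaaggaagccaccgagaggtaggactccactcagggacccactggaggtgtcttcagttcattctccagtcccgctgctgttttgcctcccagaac
Tnnt1, chr1:78348785-78349084, plus strand: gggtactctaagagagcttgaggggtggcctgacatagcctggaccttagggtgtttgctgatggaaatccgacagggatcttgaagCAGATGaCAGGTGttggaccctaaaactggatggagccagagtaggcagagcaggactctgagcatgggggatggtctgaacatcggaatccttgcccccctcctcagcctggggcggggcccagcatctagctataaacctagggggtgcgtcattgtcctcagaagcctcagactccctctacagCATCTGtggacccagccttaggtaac

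Each of these promoters held at least 1 E-box, as did 72.1% of 33361 RefSeq promoters of the same length. The MEF2 consensus, bound by a family of muscle transcription factors, was found in the second Myl1 promoter alone among the 8 entries for these genes, against 3.29% of all promoters. MCAT elements, bound by TEAD factors, were found in the Myl3 entry alone of the 8, against 14.2% of all promoters. In the RefSeq gene order, Tnni2 and Tnnt3 lie on chromosome 1 with 5 protein-coding genes between them. Tnnt1 lies next to Tnni3, the cardiac troponin I gene, and Tnni1 is separated from Tnnt2, the cardiac troponin T gene, by Lad1. These are descriptions of position and letters, not of use.

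The fast troponin genes differed far more between animals than between mothers' diets. Tnni2, which inhibits the actin-myosin interaction in fast fibres, had levels of 528, 1350, 189, 108 and 218 CPM in high-fat animals 1 to 5, against a lowest value of 59.5, a median of 748 and a highest value of 1611 CPM in the control group. Among high-fat animals number 2 stood well above the others. In the control group animal 3 was lowest and animal 4 highest, so control values enclosed all high-fat values. The highest library exceeded the lowest 27.1-fold.

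Tnnt3, the fast tropomyosin-binding subunit, had levels of 10399, 20614, 4084, 2467 and 7482 CPM in high-fat animals 1 to 5, against a lowest value of 1239, a median of 13355 and a highest value of 28073 CPM in the control group, a 22.7-fold span over all animals. Tnnc2, the fast calcium sensor, had levels of 509, 1328, 399, 288 and 365 CPM in high-fat animals 1 to 5, against a lowest value of 204, a median of 791 and a highest value of 1590 CPM in the control group. Its span was 7.79-fold. For all 3 fast troponin genes, high-fat animal 2 was highest and animal 4 lowest in the high-fat group, and control animal 4 was highest and animal 3 lowest in the control group.

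The 2 fast light chain genes differed from each other in how much they varied. Mylpf, the fast regulatory light chain, had levels of 499, 1201, 592, 240.3 and 795 CPM in high-fat animals 1 to 5, against a lowest value of 312, a median of 803 and a highest value of 1570 CPM in the control group, a 6.53-fold span. Myl1, which encodes the fast essential light chains from separate start sites, had levels of 10821, 11771, 11123, 7699 and 8839 CPM in high-fat animals 1 to 5, against a lowest value of 8527, a median of 9341 and a highest value of 13128 CPM in the control group. The Myl1 span was only 1.71-fold, close to that of the slow genes. The groups overlapped for both genes.

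**Figure D1:**
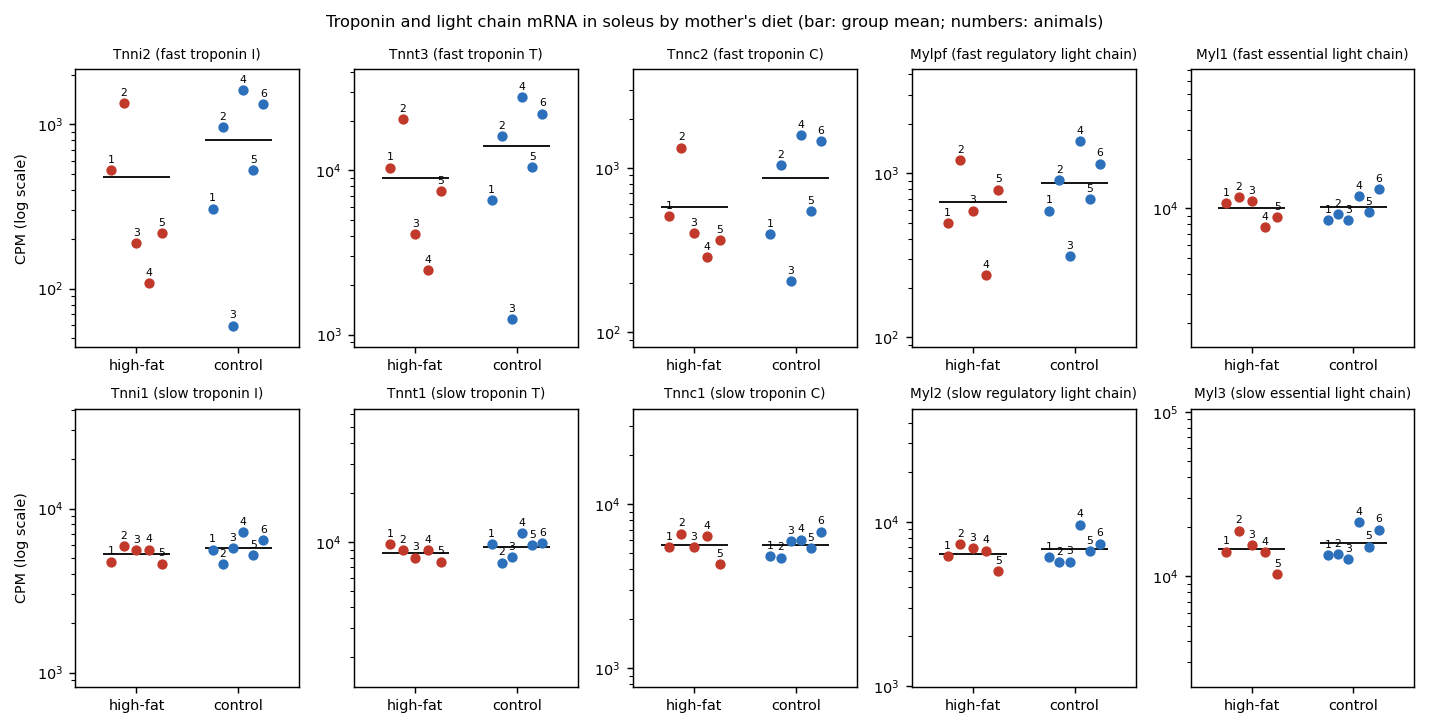
CPM of each gene on a log axis, fast genes in the upper row and slow genes below, with 1 numbered point per animal (high-fat animals left, control animals right) and a line at each group mean. Every panel spans the same fold range, so the 27.1-fold spread of Tnni2 can be set beside the 1.71-fold spread of Myl1 and the narrow spread of the slow genes.

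The slow genes spanned a narrow range across animals. Tnni1, the slow inhibitory subunit, had levels of 4751, 5876, 5585, 5612 and 4618 CPM in high-fat animals 1 to 5, against a lowest value of 4598, a median of 5686 and a highest value of 7183 CPM in the control group. Tnnt1, the slow tropomyosin-binding subunit, ranged from 7609 to 9700 CPM in the high-fat group and from 7486 to 11292 CPM in the control group. Tnnc1, the calcium sensor shared by slow fibres and heart, ranged from 4293 to 6605 CPM in the high-fat group and from 4717 to 6791 CPM in the control group. Over all animals the spans of these 3 genes were 1.56-fold, 1.51-fold and 1.58-fold, and high-fat animal 5 was the lowest of its group for each. That animal also had the largest TMM factor, 1.12, which lowers its CPM. Levels per animal were not computed with other scaling.

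The slow light chain genes Myl2 (regulatory) and Myl3 (essential), which the heart ventricle also uses, varied somewhat more. Myl2 ranged from 4983 to 7280 CPM in the high-fat group and from 5659 to 9601 CPM in the control group, a 1.93-fold span. Myl3 ranged from 10331 to 18918 CPM in the high-fat group and from 12694 to 21299 CPM in the control group, a 2.06-fold span. High-fat animal 2 and control animal 4, the animals with the highest Tnni2 of their groups, also had the highest Myl2 and Myl3 of their groups. Their TMM factors, 0.924 and 0.919, were among the smallest, which raises their CPM.

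Set against the whole table, 4 of the 10 genes (Tnni2, Tnnt3, Tnnc2 and Mylpf) had a highest library at least 5 times the lowest, as did 8.40% of all genes tested. The spread within the maternal diet groups put these 4 genes in the same order as their fold spans. Among 1333 genes with a mean of at least 100 CPM, 2 (Mbp and Myh2) had a larger within-group SD of log2 CPM than Tnni2, which had 1.63. Myh2, the type 2A myosin heavy chain gene, had 1.71. Tnnt3 was exceeded by 3 genes, Tnnc2 by 10, Mylpf by 17 and Myl1 by 488, while the slow genes were exceeded by 319 to 856.

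Slow over fast count ratios were formed within each library, so that they do not depend on library size or scaling. The Tnni1 over Tnni2 ratio was 9.0, 4.35, 29.6, 52.1 and 21.2 in high-fat animals 1 to 5, against a lowest value of 4.46, a median of 7.30 and a highest value of 96.8 in the control group. The Tnnt1 over Tnnt3 ratio was 0.933, 0.431, 1.96, 3.61 and 1.02 in high-fat animals 1 to 5, against a lowest value of 0.402, a median of 0.688 and a highest value of 6.54 in the control group. The Tnnc1 over Tnnc2 ratio was 10.8, 4.97, 13.7, 22.3 and 11.8 in high-fat animals 1 to 5, against a lowest value of 3.82, a median of 7.26 and a highest value of 29.3 in the control group. The group medians were higher in the high-fat group for each troponin pair, and the full ranges overlapped. In each troponin pair the same 4 animals had the lowest ratios (high-fat animal 2 and control animals 2, 4 and 6), and control animal 3, high-fat animal 4 and high-fat animal 3 had the highest, in that order.

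The Myl2 over Mylpf ratio was 12.3, 6.06, 11.7, 27.8 and 6.27 in high-fat animals 1 to 5, against a lowest value of 6.12, a median of 7.98 and a highest value of 18.3 in the control group. High-fat animal 4, with the lowest Mylpf, had the highest ratio of all. The Myl3 over Myl1 ratio was 1.30, 1.61, 1.39, 1.83 and 1.17 in high-fat animals 1 to 5, against a lowest value of 1.46, a median of 1.53 and a highest value of 1.78 in the control group. This pair ordered the animals differently, with high-fat animals 5, 1 and 3 lowest.

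On the log2 scale no ratio differed between maternal diets beyond the spread between animals. Tnni1 over Tnni2 averaged 4.06 ± 1.42 in the 5 high-fat animals (SD) and 3.46 ± 1.73 in the 6 control animals (SD), a difference of 0.60 ± 0.95 (SE; two-sided exact permutation test over all splits of the animals, p = 0.548). The difference was 0.38 ± 0.82 for troponin T (exact permutation p = 0.665), 0.49 ± 0.58 for troponin C (exact permutation p = 0.420) and 0.32 ± 0.47 for the regulatory light chain (exact permutation p = 0.498). Myl3 over Myl1 averaged 0.53 ± 0.25 in the 5 high-fat animals (SD) and 0.64 ± 0.11 in the 6 control animals (SD), a difference of -0.11 ± 0.12 (exact permutation p = 0.335). Adjusted over the 5 ratios by the Benjamini-Hochberg method, each exact permutation p was 0.665.

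The animals' names begin with 1 of 3 letters, whose meaning the labels do not give. With splits made within letters (72 splits), the letter-adjusted difference in Myl3 over Myl1 was -0.21 (exact permutation p = 0.0278, or 0.139 adjusted over the 5 ratios), and the other 4 ratios gave exact permutation p of at least 0.472. With 72 splits, 1 ratio alone could not fall under 0.05 after this adjustment, however large its difference. The Myl3 over Myl1 difference within letters A, C and H was -0.37, -0.19 and -0.06, from as few as 1 animal a group. The Tnni1 over Tnni2 difference within the same letters was 1.80, -1.37 and 1.75, so its direction was not the same in each.

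**Figure D2:**
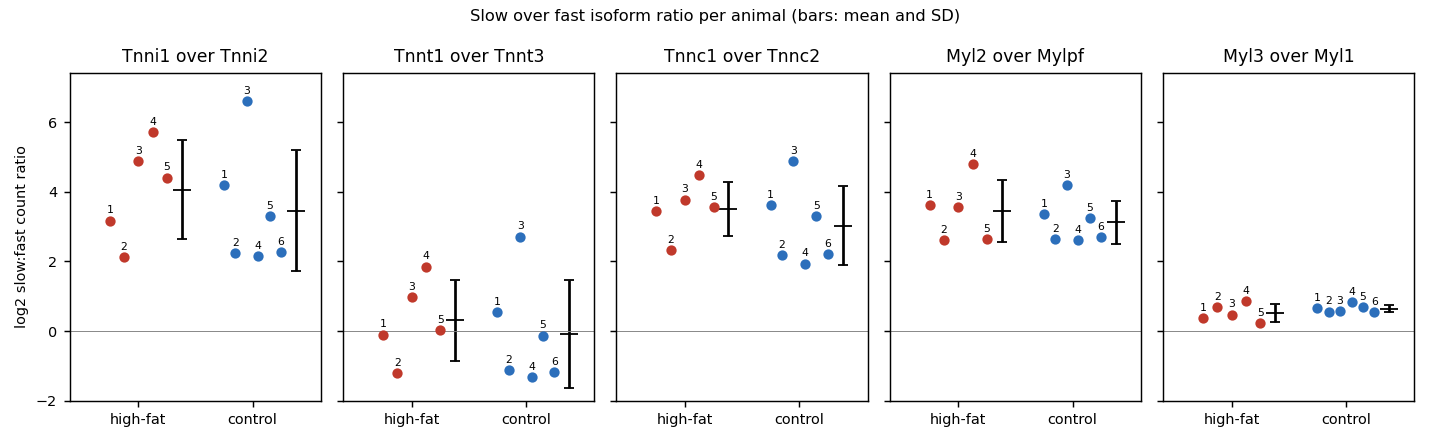
Log2 ratio of slow to fast counts for the 5 gene pairs, with 1 numbered point per animal and the group mean with its SD beside the points, high-fat group left and control group right in each panel. The ratios overlap between groups in each panel, and that of Myl3 over Myl1 varies least, from 0.22 to 0.87.

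Gene by gene, no member was called by edgeR's quasi-likelihood test at an adjusted p under 0.05, a rule that called 0 of all genes tested (0%), with 0.471 as the smallest adjusted p. At an unadjusted p under 0.05 there were 0 of 10 members, where 4.84% of all genes (523) lay under it. DESeq2 called 7 genes in all and none of the members. The groups' CPM ranges did not separate for any of the 10 members, where they did for 0.370% of all genes. Fitted means were lower in the high-fat group for 9 members and higher for 1, beside 49.1% of all genes with a lower one. The median log2 fold change was -0.60 over the fast members, -0.11 over the slow members and 0.00 over all genes.

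Mean Tnni2 was 478 ± 513 CPM over the 5 high-fat animals and 800.4 ± 605 CPM over the 6 control animals (± SD), and its log2 fold change was -0.74 ± 0.75 (SE). The log2 fold change was -0.65 ± 0.66 for Tnnt3, -0.60 ± 0.52 for Tnnc2 and -0.39 ± 0.41 for Mylpf, each about the size of its error (edgeR adjusted p = 0.974 for these 4 genes). Myl1 had -0.01 ± 0.17. Among the slow genes, Tnni1 had -0.13 ± 0.14, Tnnt1 -0.11 ± 0.14, Tnnc1 0.01 ± 0.15, Myl2 -0.10 ± 0.17 and Myl3 -0.13 ± 0.19. Without high-fat animal 2, the log2 fold change of Tnni2 was -1.62 ± 0.72 and that of Tnnc2 -1.16 ± 0.49, with unadjusted edgeR p of 0.0446 and 0.0345 and adjusted p of 0.655 and 0.638. Without control animal 4 they were -0.42 ± 0.78 and -0.34 ± 0.53.

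The fast genes varied together, Myl1 less closely than the other 4. Over the 11 animals Tnni2 was related to Tnnt3 with Pearson's r = 0.99 and Spearman's rho = 0.98 on log2 CPM (both permutation p = 1e-05, the smallest that 100000 random pairings can give). It was related to Tnnc2 with r = 0.97, to Mylpf with r = 0.89 and to Myl1 with r = 0.74. All 10 pairs of fast genes passed on both measures after adjustment over the 45 pairs of members (r from 0.71 to 0.99), against 4 of 10 pairs of slow genes (r from 0.48 to 0.94) and 2 of 25 slow-fast pairs (r from 0.01 to 0.78). The pairs share libraries and are not independent. All r use TMM-scaled values, and no other scaling was tried for them. A library's factor shifts all its genes alike, and its part in the r of genes with narrow spans was not tested. Summed markers of fibroblasts and tendon (the latter mostly Thbs4) were lower where Tnni2 was higher, with r of -0.84 and -0.82. Only Tnni2 was set against these sums. Within the groups, slow Myl3 was also lowest where the fibroblast sum was highest, in high-fat animal 5 and control animal 3. Tnni1, Tnnt1, Tnnc1 and Myl2 were lowest in high-fat animal 5 and control animal 2. The part of the marker sums in the fast or slow gene levels was not tested.

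The strongest slow pair was Myl2 and Myl3 (r = 0.94, rho = 0.95; permutation p = 3e-05 and 8e-05, adjusted 0.000338 and 0.0009). The 2 slow-fast pairs that passed on both measures were Myl3 with Myl1 (r = 0.78, rho = 0.86; permutation p = 0.00411 and 0.0011, adjusted 0.0182 and 0.00619) and Myl3 with Tnnc2 (r = 0.78, rho = 0.82; permutation p = 0.00445 and 0.00332, adjusted 0.0182 and 0.0149). Myl3 with Tnni2 passed on Pearson's r only (r = 0.70, rho = 0.70; permutation p = 0.0168 and 0.0206, adjusted 0.0398 and 0.0515). Without the 2 animals farthest from the median of Tnni2, r with Tnnt3 was 0.98, with Tnnc2 0.97, with Mylpf 0.79 and with Myl1 0.60. Tnni2 had a gap between 529 and 968 CPM, with 4 animals above it, but the step from 59.5 to 108 CPM was nearly as wide on the log2 scale. The split was set from these same values and does not mark separate classes of animals. Among the 7 animals below the gap r was 0.97 with Tnnt3, 0.98 with Tnnc2, 0.69 with Mylpf and 0.52 with Myl1. With values centred within maternal diet and name letter, r over the 10 fast pairs ran from 0.77 to 0.99. Single letters held 3 or 4 animals, too few for an r of their own.

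**Figure D3:**
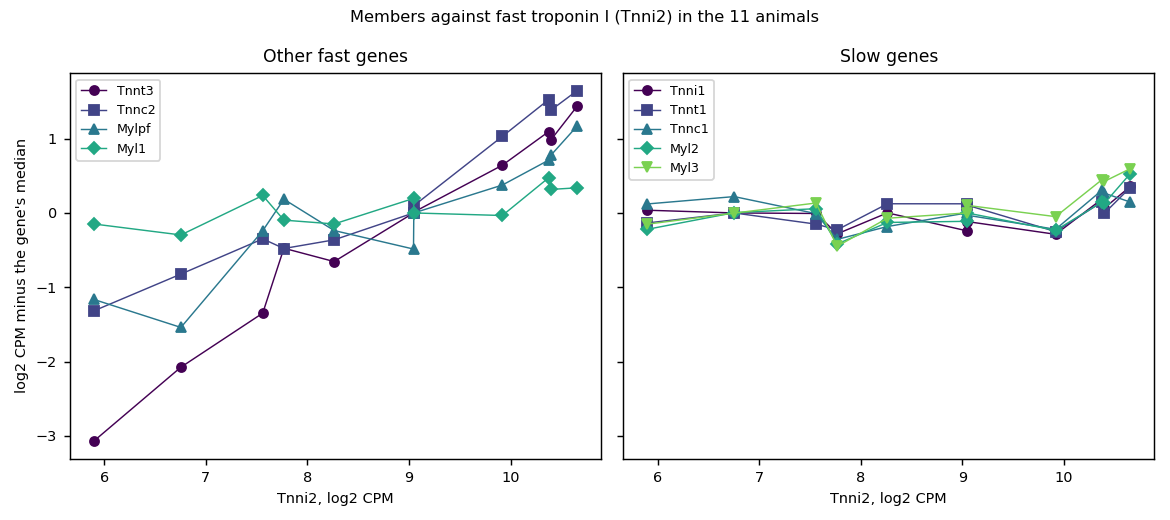
Log2 CPM of the other members, each minus its median over the 11 animals, against Tnni2 in log2 CPM, with 1 point per animal joined in order of Tnni2. Tnnt3, Tnnc2 and Mylpf are higher where Tnni2 is, and Myl1 and slow Myl3 are so over a narrow range (r with Tnni2 of 0.74 and 0.70). The vertical range of the slow genes in the right panel is small beside that of Tnnt3.

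**Figure D4:**
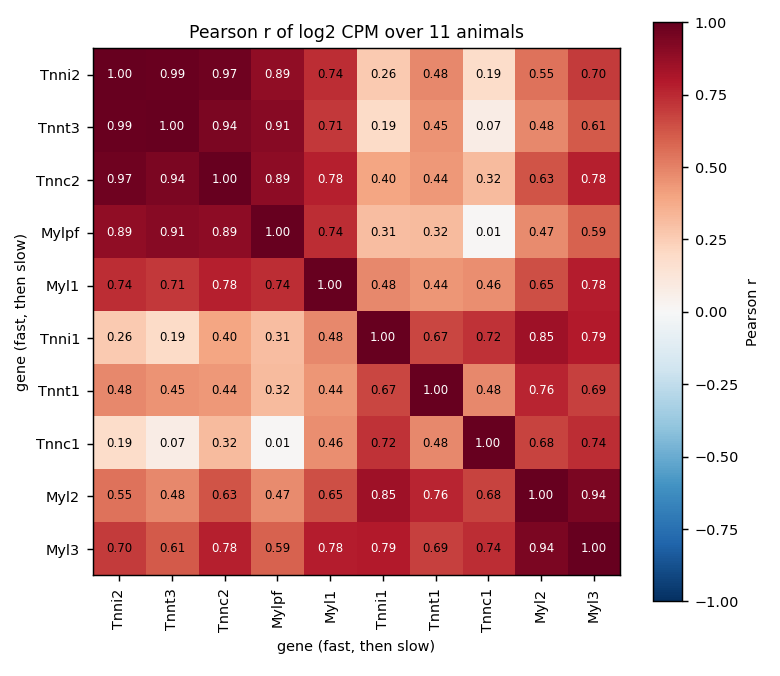
Pearson's r of log2 CPM over the 11 animals for each pair of members, fast genes first on both axes. The fast block runs from 0.71 to 0.99, with Myl1 at its lower edge, and the slow-fast block from 0.01 to 0.78.

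Outside the members, the genes whose log2 CPM was most like the mean of the 5 fast members over the 11 libraries were Myh2 (Pearson's r = 0.99) and Tpm1, an alpha-tropomyosin gene (r = 0.96). Ccdc58 (0.95), Sirt4 (0.94), Rab3b (0.93), Fam131b (0.93), Dennd6b (0.92) and Gon4l (0.92) followed. The levels of these genes were low. Ccdc58 ran only from 15.9 to 22.0 CPM and Gon4l from 18.6 to 28.6 CPM. Rab3b, with the widest span in fold, ran from 2.10 to 16.0 CPM. Myh2 had levels of 598, 2282, 261, 100.1 and 340.0 CPM in high-fat animals 1 to 5, against a lowest value of 107, a median of 1195 and a highest value of 2391 CPM in the control group. Tpm1 ranged from 963 to 5806 CPM in the high-fat group and from 1040 to 5532 CPM in the control group, lowest in high-fat animal 4 and control animal 3, as the fast troponins were. The genes most like the mean of the 5 slow members were Psmb5 (0.96), Thoc6 (0.96), Ndufa11 (0.96), Timm13 (0.96), Ndufb7 (0.96), Mrps12 (0.96), Rpl3l (0.95) and Mrpl43 (0.95). Among these are mitochondrial respiratory complex I, import and ribosome components, and each r is a description with no test. These r also use TMM-scaled values only.

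Markers of the fastest fibres had other high libraries. Myh4, the type 2B myosin heavy chain gene, stood at 6.91 to 15.5 CPM in the high-fat group and at 8.04 to 19.1 CPM in 5 control animals, with control animal 2 apart at 150.5 CPM. Myh1, the type 2X myosin heavy chain gene, stood at 39.5 to 89.6 CPM in the high-fat group and at 19.5 to 142 CPM in 5 control animals, with control animal 5 apart at 559 CPM. Pvalb, a calcium buffer of fast fibres, was highest in high-fat animal 5 at 139.6 CPM, where Tnni2 stood at 218 CPM. Mybpc2, the fast myosin-binding protein C gene, ranged from 2.36 to 56.0 CPM in the high-fat group and from 1.74 to 115 CPM in the control group, lowest in high-fat animal 4 and control animal 3.

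Other genes of the contractile apparatus were described by list. Of 15 other thick filament genes that passed the filter, 4 had a higher and 11 a lower mean in the high-fat group, beside 49.1% of all genes with a lower one. Their median log2 fold change was -0.07, and 0 lay under an unadjusted p of 0.05 in edgeR's test, beside 4.84% of all genes. The largest fold changes were those of Myh4 (-1.63 ± 0.76), Mybpc2 (-1.35 ± 0.94) and Myh1 (-1.19 ± 0.65), while Myh7 had -0.02 ± 0.16. Those of Myh4 and Myh1 each rested on 1 library: Myh4 had -0.12 ± 0.30 without control animal 2, and Myh1 had -0.19 ± 0.40 without control animal 5. Mybpc2 had -2.19 ± 1.00 without high-fat animal 2. Of 9 other thin filament genes, 2 had a higher and 7 a lower mean (median -0.08, 0 under 0.05), with Tpm1 at -0.55 ± 0.49, the skeletal actin gene Acta1 at 0.00 ± 0.19 and the slow tropomyosin gene Tpm3 at -0.08 ± 0.14. Of 6 calcium handling genes, 2 had a higher and 4 a lower mean (median -0.0033, 0 under 0.05), among them the slow calcium pump gene Atp2a2 at -0.01 ± 0.17. Of 7 other troponin and light chain genes, 4 had a higher and 3 a lower mean (median 0.06, 0 under 0.05). Among the 4 were Myl6 and Myl6b, whose counts moved together. Whether the same reads were counted for both was not tested, so they may not be separate observations.

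Counts were also found for cardiac and developmental forms. Whether short reads of related genes, such as Myh7 or Acta1, were counted for them was not tested. The cardiac myosin gene Myh6 ranged from 386 to 993 CPM in the high-fat group and from 456 to 928 CPM in the control group. The cardiac actin gene Actc1 ranged from 353 to 718 CPM in the high-fat group and from 393 to 853 CPM in the control group, and the embryonic myosin gene Myh3 from 95.0 to 407 CPM in the high-fat group and from 119.9 to 424 CPM in the control group. Tnnt2 ranged from 17.9 to 55.2 CPM in the high-fat group and from 7.77 to 134 CPM in the control group, with control animal 1 highest. Tnni3 averaged 4.12 CPM in the high-fat group and 4.83 CPM in the control group, a log2 fold change of -0.23 ± 0.25. Of 23 transcriptional and signalling regulators of fibre type that passed the filter, 2 lay under an unadjusted p of 0.05 (Ppard and Eya4, with log2 fold changes of 0.50 and 0.42) and none was called (edgeR adjusted p = 0.974 for both). Of all genes tested, 4.84% lay under that unadjusted p. Ppargc1a, a coactivator of the oxidative programme, had a log2 fold change of 0.52 and an unadjusted edgeR p of 0.0887. Tmod1 (0.29 ± 0.15), which caps thin filaments, had the smallest edgeR p of the thin filament list, 0.0723. Sox6 (-0.19), Prox1 (0.02) and Tbx15 (0.29), regulators of the fast or slow programme in mice or fish, were not called.

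**Figure D5:**
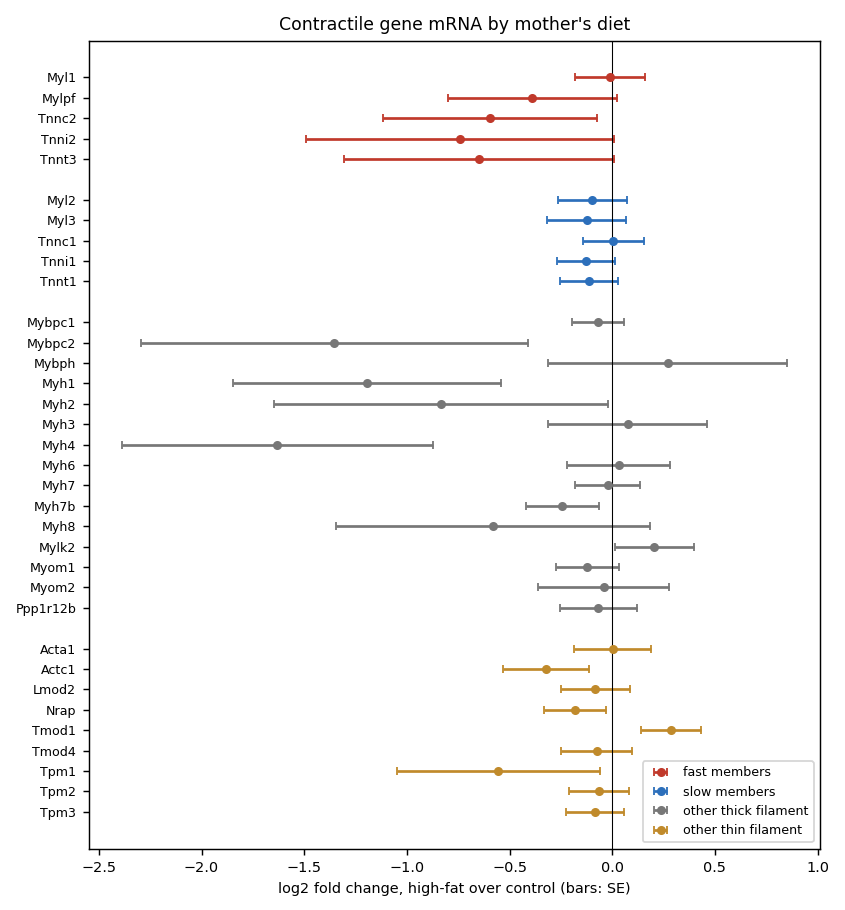
Log2 fold change of the high-fat over the control group with its SE for the members and for other thick and thin filament genes. The fast troponins, Mylpf, Myh2, Myh1, Myh4, Mybpc2 and Tpm1 lie below 0 with wide bars (Myh4 and Myh1 each through 1 control library), while Myl1, the slow members, Myh7 and Acta1 lie within 0.13 of 0.

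Markers of other cell types also differed between animals. The summed level of 4 measured tendon markers, of 6 listed, ran from 243 to 644 CPM in the high-fat group and from 135 to 580 CPM in the control group. Most of this sum was Thbs4, with means of 420 CPM in the high-fat and 207 CPM in the control group. Fmod, the next highest, had means of 42.7 and 41.9 CPM. The sum without Thbs4 was not tested. High-fat animal 2 had the lowest tendon sum of its group and the highest Tnni2, and control animal 3 had the highest tendon sum of its group and the lowest Tnni2. The summed level of 6 fibroblast and matrix markers ran from 1097 to 3118 CPM in the high-fat group and from 900.2 to 3287 CPM in the control group, lowest in high-fat animal 2 and control animal 6 and highest in high-fat animal 5 and control animal 3 of their groups. The relations of Tnni2 to the marker sums were chosen after the data were seen, so their p-values are descriptive. Those of the other members, slow genes included, were not computed. Over the 11 animals log2 Tnni2 was inversely related to the log2 fibroblast and matrix sum (Pearson's r = -0.84, permutation p = 0.00184, adjusted 0.00938 over 7 marker sums; Spearman's rho = -0.80, permutation p = 0.00447, adjusted 0.0313). It was likewise related to the tendon sum (r = -0.82, permutation p = 0.00268, adjusted 0.00938; rho = -0.75, permutation p = 0.00963, adjusted 0.0337). Without the 2 animals farthest from the median of Tnni2, r was -0.80 with the fibroblast sum and -0.78 with the tendon sum. Among the 7 animals below the gap in Tnni2 these were -0.82 and -0.71, and with values centred within diet -0.84 and -0.86. The other 5 marker sums did not pass after adjustment, the macrophage sum being nearest (r = -0.61, permutation p = 0.0484, adjusted 0.113; rho = -0.67, permutation p = 0.0284, adjusted 0.0663). The sum of 6 macrophage markers ran from 170 to 1025 CPM in the high-fat group and from 204 to 600.0 CPM in the control group, with means of all 6 higher in the high-fat group and an unadjusted edgeR p under 0.05 for 2 (Cd163 and Mrc1). Over all 10814 genes tested, 5508 had a higher mean and 4.84% lay under that p. The 5 Schwann cell and nerve markers summed to 109 to 254 CPM in the high-fat group and to 112 to 1772 CPM in the control group, where control animal 5 stood apart. The nerve sum averaged 175 CPM in the high-fat group and 428 CPM in the control group, but 159 CPM in the control group without control animal 5, so its direction turned with that library. Adipocyte markers summed to 299 to 679.8 CPM in the high-fat group and 401 to 603 CPM in the control group. Smooth muscle markers (4 of 5 measured) summed to 279 to 525 CPM in the high-fat group and 259.6 to 523 CPM in the control group, and endothelial markers (4 of 5 measured) to 236 to 450.3 CPM in the high-fat group and 218 to 394 CPM in the control group. The tendon marker Thbs4 lay under an unadjusted p of 0.05, with a log2 fold change of 1.02, and no marker of these lists was called. No marker that passed the filter was at 0 in any library.

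The ratios were also set beside the animals' own measures. Over 15 relations of the 5 ratios to body weight, total fat as a share of body weight (11 animals each) and plasma insulin (10 animals, since high-fat animal 5 has no value), none passed after adjustment, and the smallest adjusted permutation p was 0.937. The largest Pearson's r was 0.54 for Myl3 over Myl1 with body weight (permutation p = 0.0861; Spearman's rho = 0.39, permutation p = 0.235; r = 0.56 without the 2 animals farthest from the median weight). Tnni1 over Tnni2 had r = 0.24 with plasma insulin (permutation p = 0.498; rho = 0.02), and -0.38 without the 2 animals farthest from the median insulin.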

How the data were processed

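Poly(A) RNA from soleus of 11 rats was sequenced for 36 cycles, and the authors deposited 1 table of raw counts per gene symbol, with no normalization. The submitters' processing notes name FastQC, BWA, HTSeq and edgeR; for versions, genome build, annotation and strand setting, "not given in the sources used here" applies, so overlapping and antisense genes cannot be told apart and short reads may be split between near-identical genes. Columns were matched by animal name and groups by the diet label. Replicate numbers follow accession order and differ from the numbers in the column headers for most high-fat animals.

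Genes were kept by edgeR's filterByExpr (10814 of 16810), scaled by TMM (factors 0.897 to 1.12) and tested across the whole table by edgeR's quasi-likelihood F test, with p-values adjusted after Benjamini and Hochberg and called under 0.05 (common coefficient of variation 0.234). Log2 CPM used a prior count of 2. SEs are the log2 fold change over the square root of F. Ratios were log2(slow count + 0.5) minus log2(fast count + 0.5), tested by exact permutation. A count of 0 allows up to 3 counts, 0.195 to 0.295 CPM, which covers counting error only. The members and lists were chosen with earlier results of these data known. Named genes were the members, the 8 genes most like each class mean, members of the contractile lists, and of the regulators Sox6, Prox1, Tbx15 and the 4 with the smallest p; Pearson's r ranked likeness. Some items that these rules name are not reported here. Cell type markers and Mbp were named after their values were seen. The gene and permutation tests were tested on simulated data. Alternatives were RLE or library size scaling, no or a stricter filter, DESeq2, limma voom, the name letter as a covariate, other ratio scales and leaving out each library. The split at the gap in Tnni2, the centring within diet and letter, the adjustment of the letter-wise p-values, the relations of marker sums to Tnni2 and the refits of Myh4, Myh1, Mybpc2 and the nerve markers without each library were chosen after seeing the data. Ratios and permutations were computed in Python 3.11.15 (SciPy 1.17.1, pandas 2.3.3, NumPy 2.4.6), and gene tests in R 4.3.3 with DESeq2 1.42.0, limma 3.58.1 and edgeR 4.0.16.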

Additional observations from a re-analysis of the deposited data

How the results depend on the processing

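No paired analysis was possible. The column headers number the animals of each group, but nothing links a number in the high-fat group to the same number in the control group. The high-fat headers skip the number 2, which is a header number and not high-fat animal 2 as numbered here. DESeq2 called 5 genes higher and 2 lower, against 0 and 0 in edgeR's quasi-likelihood test, and no member in any setting. Leaving out 1 library at a time, 0 to 2 members lay under an unadjusted p of 0.05 (2 without high-fat animal 2). The log2 ratio differences then ran from 0.19 to 1.23 for troponin I, -0.0016 to 0.94 for troponin T, 0.25 to 0.86 for troponin C, -0.019 to 0.53 for the regulatory light chain and -0.20 to -0.04 for the essential light chain, whose letter-adjusted difference of -0.21 was the only ratio to pass before adjustment. Fold changes near 0 changed sign: Tnnc1 was -0.0012 with RLE scaling, -0.0012 with DESeq2 and -0.083 when the name letter entered the fit, and Myl1 was 0.025 with library size scaling. Without 1 library Tnnc1 ran from -0.057 to 0.089, Myl1 from -0.075 to 0.075 and Myl2 from -0.15 to 0.024. The cause was not tested. The 4 variable fast genes kept their sign in each setting run. Without 1 library Myh4 ran from -1.84 to -0.12, Myh1 from -1.43 to -0.19 and Mybpc2 from -2.19 to -0.93. Member counts were high, so depth adds little to the spread between animals. Nothing says whether animals of 1 letter were handled together.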

Other observations

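Outside the members, counts of the light chain genes Myl6 and Myl6b kept nearly the same ratio in each library. Myl6b over Myl6 ran from 0.863 to 0.901 over the 11 libraries, with 1253 to 2485 counts for Myl6 and 1124 to 2191 for Myl6b. Whether the same reads were counted for both was not tested, and the values of these genes are uncertain.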
